A study of Mus musculus with 9 samples.

Results

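The genes described here are 37 genes of cholesterol synthesis, its SREBP control, fatty acid synthesis and sterol transport, measured in mouse bone marrow haematopoietic stem cells (HSCs), the self-renewing cells from which blood lineages arise. Members were found by gene symbol, and all 37 are among the 19454 genes of the deposited tables. They fall into 7 genes of the mevalonate pathway, 11 genes that turn its product into cholesterol, 5 genes that control the pathway, 9 genes of fatty acid synthesis and 5 genes of sterol transport. The first 18 are called sterol synthesis genes below. Low-input RNA sequencing of 1500 sorted cells per library gave 9 libraries in 3 groups of 3. In the inhibition plus spermidine group, wild-type mice had the mPFC and PAG brain regions inhibited by a chemogenetic tool and received a spermidine supplement. In the inhibition group, wild-type mice had the same inhibition without spermidine. The control group was wild type, and its labels name no brain intervention. Library names mark the inhibition libraries as AAV, a viral gene carrier, and the labels describe neither the virus, the drug nor the neurons in control, so these cannot be told apart from the inhibition itself. The labels give no age, sex, sort marker, batch or source animal, so the p-values below measure the spread between libraries, which may be technical.

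Cells build cholesterol from acetyl-CoA. The mevalonate branch yields farnesyl diphosphate, and a second branch joins farnesyl units into squalene, closes the rings and trims lanosterol to cholesterol. The transcription factors SREBP-2 (gene Srebf2) and SREBP-1 (Srebf1) switch these genes on. Scap carries them out of the endoplasmic reticulum when sterol is low, and the Insig proteins hold Scap back when sterol is high. SREBP-1 mainly serves fatty acid synthesis, which shares acetyl-CoA with the sterol branch. Sterols in excess leave the cell through Abca1 and Abcg1, whose genes are known targets of the liver X receptors. Dividing cells and blood progenitors draw on both branches for new membrane.

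SREBPs act at promoters together with the CCAAT-binding factor NF-Y. RefSeq promoter windows were used to look for 3 motifs on both strands in the 250 bases before each gene start, and 28 of the 37 members matched, with 36 windows because some genes have several starts. The CCAAT box (CCAAT, or ATTGG on the other strand) was in 22 of the 36 member windows, which is 61.1%, against 35.8% of the 13844 windows of all genes tested. The E-box CACGTG was in 6 member windows, which is 16.7%, against 7.83%. A sterol regulatory element of the form TCACNCCAC was in 1 member window, that of Hmgcs1, and in 0.982% of the windows of all genes tested. Each motif was counted by itself, so matches of different motifs may share bases, and a match is a description of the letters, not of binding. The 4 windows printed here belong to Insig1, the member with the most RNA per length, to Hmgcs1, the one with the sterol element, to Sc5d, the sterol gene with the highest fold change after inhibition, and to Srebf2, the member with the lowest. Capitals mark the motif matches, and each sequence runs 5′ to 3′ on the gene's strand of GRCm38.p6. The window of Insig1 lies at chr5:28071162-28071411 on the plus strand, Hmgcs1 at chr13:119690101-119690350 on the plus strand, Sc5d at chr9:42264301-42264550 on the minus strand and Srebf2 at chr15:82147019-82147268 on the plus strand.
Insig1: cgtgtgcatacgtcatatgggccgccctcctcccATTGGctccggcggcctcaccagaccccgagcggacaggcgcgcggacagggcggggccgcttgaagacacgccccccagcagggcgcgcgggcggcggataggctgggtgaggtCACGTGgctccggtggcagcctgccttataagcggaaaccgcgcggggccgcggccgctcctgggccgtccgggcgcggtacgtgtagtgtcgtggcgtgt
Hmgcs1: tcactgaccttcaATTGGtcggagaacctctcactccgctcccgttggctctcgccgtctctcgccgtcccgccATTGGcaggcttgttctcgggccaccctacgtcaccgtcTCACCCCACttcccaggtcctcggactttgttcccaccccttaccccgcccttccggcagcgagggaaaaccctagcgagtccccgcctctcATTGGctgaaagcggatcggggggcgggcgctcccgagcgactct
Sc5d: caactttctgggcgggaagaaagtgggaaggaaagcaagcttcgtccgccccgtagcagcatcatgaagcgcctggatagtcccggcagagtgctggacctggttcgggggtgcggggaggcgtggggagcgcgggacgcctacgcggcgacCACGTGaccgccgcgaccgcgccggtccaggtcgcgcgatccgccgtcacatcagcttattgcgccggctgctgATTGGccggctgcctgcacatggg
Srebf2: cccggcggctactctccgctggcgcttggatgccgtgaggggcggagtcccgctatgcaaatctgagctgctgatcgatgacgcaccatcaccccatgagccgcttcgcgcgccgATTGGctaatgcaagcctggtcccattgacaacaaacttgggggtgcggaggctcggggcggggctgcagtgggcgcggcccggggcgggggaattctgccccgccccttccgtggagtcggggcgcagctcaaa
Insig1 and Sc5d each hold 1 E-box, at -101 and -98 from the gene start, and 1 CCAAT box in reverse. The Hmgcs1 window holds 3 CCAAT boxes in reverse with the sterol element at -137 among them. Srebf2 holds 1 CCAAT box in reverse, at -135. Only exact matches were searched, so near matches in these windows stay unmarked.

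Total estimated counts were 16096276 to 25360256 per library, so a count of 0 allows up to 0.118 to 0.186 CPM (counts scaled by TMM to a common library total; the floor is 3 counts and covers counting error only). Of the 13 HSC markers listed, Procr averaged 7.59 CPM in the spermidine libraries, 4.10 CPM in the inhibition libraries and 0.125 CPM in control, which is at or under that floor. Slamf1 averaged 13.8 CPM in the spermidine libraries, 17.6 CPM in the inhibition libraries and 105 CPM in control, so the defining markers do not give the 3 groups 1 profile. RNA of other blood cells also differed. The 16 neutrophil markers summed to 2.604 to 2.71% of counts in the spermidine libraries, 6.03 to 6.16% in the inhibition libraries and 0.5999 to 0.613% in control, with none of the 16 at or under the floor in any group. The 11 megakaryocyte markers, none at the floor, summed to 0.0192 to 0.0204% of counts in the spermidine libraries, 0.0159 to 0.0174% in the inhibition libraries and 0.292 to 0.297% in control. Immunoglobulin genes held 0.297 to 0.317% of counts in the spermidine libraries, 0.628 to 0.655% in the inhibition libraries and 0.0031 to 0.0033% in control. The part of these cells in the member results was not tested, and in bulk RNA more cells of a type cannot be told apart from more RNA per cell. Removing 226 genes of other cell types and immunoglobulins before scaling left every member on the same side of the threshold in every comparison except Srebf1 in the spermidine group against inhibition.

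Per transcript length (TPM, the share of transcripts after division by length, scaled to a common total), Insig1 was the highest member in every group and Fdps the second. Insig1 averaged 150 ± 2.87 TPM in the spermidine libraries, 113 ± 3.33 TPM in the inhibition libraries and 37.2 ± 1.36 TPM in control (SD, n = 3 each). Fdps averaged 75.7 ± 2.13 TPM in the spermidine libraries, 103 ± 3.32 TPM in the inhibition libraries and 30.4 ± 2.57 TPM in control. Npc2, Ebp, Msmo1 and Pmvk completed the highest 6 members in both inhibited groups, and in control Srebf2 took the place of Msmo1. Scd1 was the lowest member in all 3 groups, with an average of 0.222 TPM in the spermidine libraries, 0.123 TPM in the inhibition libraries and 0.0194 TPM in control. Members therefore covered a wide range of levels, and the fatty acid genes sat low in it. Their 9 values summed to 25.04 to 28.5 TPM in the spermidine libraries, 20.4 to 21.5 TPM in the inhibition libraries and 16.4 to 17.2 TPM in control, whereas the 18 sterol genes summed to 226 to 230 TPM in the spermidine libraries, 253 to 270 TPM in the inhibition libraries and 117 to 124 TPM in control.

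Inhibition against control asks how these genes differ between cells sorted as HSCs from inhibited and from control mice. Marker RNA of HSCs, neutrophils and megakaryocytes also differed in both comparisons with control (above). The part of cell make-up in the member changes was not tested. Most steps of cholesterol synthesis were higher after inhibition, the 3 genes that drive or escort SREBP (Srebf1, Srebf2 and Scap) were lower, and fatty acid genes went both ways. Of the 37 members 23 were higher and 10 lower, and 4 did not pass edgeR's quasi-likelihood test at a Benjamini-Hochberg adjusted p of 0.05. Of all 14461 genes tested 36.2% were higher and 36.1% lower, so most genes in these libraries were called and the share of members called in either direction has to be read against 72.4%. Sterol synthesis genes had a median log2 fold change of 0.96, with 13 of 18 higher and 4 lower, and fatty acid synthesis genes one of 0.20, with 4 of 9 higher and 3 lower. The median over all genes was 0.02. At least 2-fold changes passed the test in 11 members that were higher and 3 that were lower, against 15% and 14% of all genes. For 33 members no inhibition library overlapped a control library, against 74.5% of all genes. Of the 23 higher and 10 lower members 17 and 8 passed in the same direction under every alternative tried, and Mvd and Scd1 did so in all but the 2 TPM fits with a filter, which did not test them. In TPM the calls of Srebf1, Insig2, Stard4 and Fads2 were lost. TPM was fitted with limma on log2(TPM + 1) without a filter unless stated, a scale that understates the change of low genes.

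Inhibition plus spermidine against inhibition asks what the supplement adds on the inhibited background. Under TMM scaling, which takes the typical gene as unchanged, 10 of 18 sterol genes were lower and 4 of 9 fatty acid genes higher with spermidine. Of the 37 members 9 were higher and 12 lower, against 29.1% and 28.9% of all genes tested (58.1% in either direction). Sterol synthesis genes had a median log2 fold change of -0.34, and 2 of the 18 were higher. Fatty acid synthesis genes had one of 0.26, with 1 lower, and the 4 higher became 2 with DESeq2, without inhibition replicate 3 or without spermidine replicate 3. The median over all genes was 0.03. No member reached a 2-fold change in either direction, against 9.45% of all genes higher and 3.24% lower. Libraries did not overlap for 23 members, against 62.8% of all genes. These calls depend on how libraries are scaled. With scaling to total counts the median gene moved up by 0.26, and 81.1% of all calls were higher, against 50.2% with TMM. Of all 14461 genes 7711 were then higher and 1793 lower. Members then split into 19 higher and 5 lower, sterol genes into 6 higher and 5 lower, and fatty acid genes into 6 higher and 0 lower.

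Relative to the median gene, the median sterol gene lay 0.37 lower and the median fatty acid gene 0.23 higher under TMM. Total-count and upper-quartile scaling move all genes alike, so they leave these distances as they are. In TPM, where distances can change, sterol genes lay 0.23 below and fatty acid genes 0.068 above the median gene with the filter, and 0.16 below and 0.14 above it without. The 5 members still lower under total-count scaling were Idi1, Fdps, Msmo1, Nsdhl and Ebp, all sterol synthesis genes. Of the members called under TMM, 2 of the 9 higher (Acaca and Abcg1) and 4 of the 12 lower (Idi1, Fdps, Msmo1 and Nsdhl) passed in the same direction under every alternative tried. Fads2 and Abca1 passed in all but the 2 filtered TPM fits, which did not test them.

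Inhibition plus spermidine against control shares its libraries with the other 2 comparisons, so it repeats rather than adds to them. Of the 37 members 23 were higher and 8 lower, against 41% and 37.1% of all genes (78.1% in either direction). Sterol synthesis genes had a median log2 fold change of 0.53, with 12 of 18 higher and 3 lower, and fatty acid synthesis genes one of 0.49, with 5 of 9 higher and 2 lower. The median over all genes was 0.06 under TMM, where 52.5% of all calls were higher, and 0.32 under total-count scaling, where 67.7% were. Libraries did not overlap for 31 members, against 79.8% of all genes, and at least 2-fold changes passed in 7 higher and 4 lower members, against 20.7% and 12.2%.

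**Figure D1:**
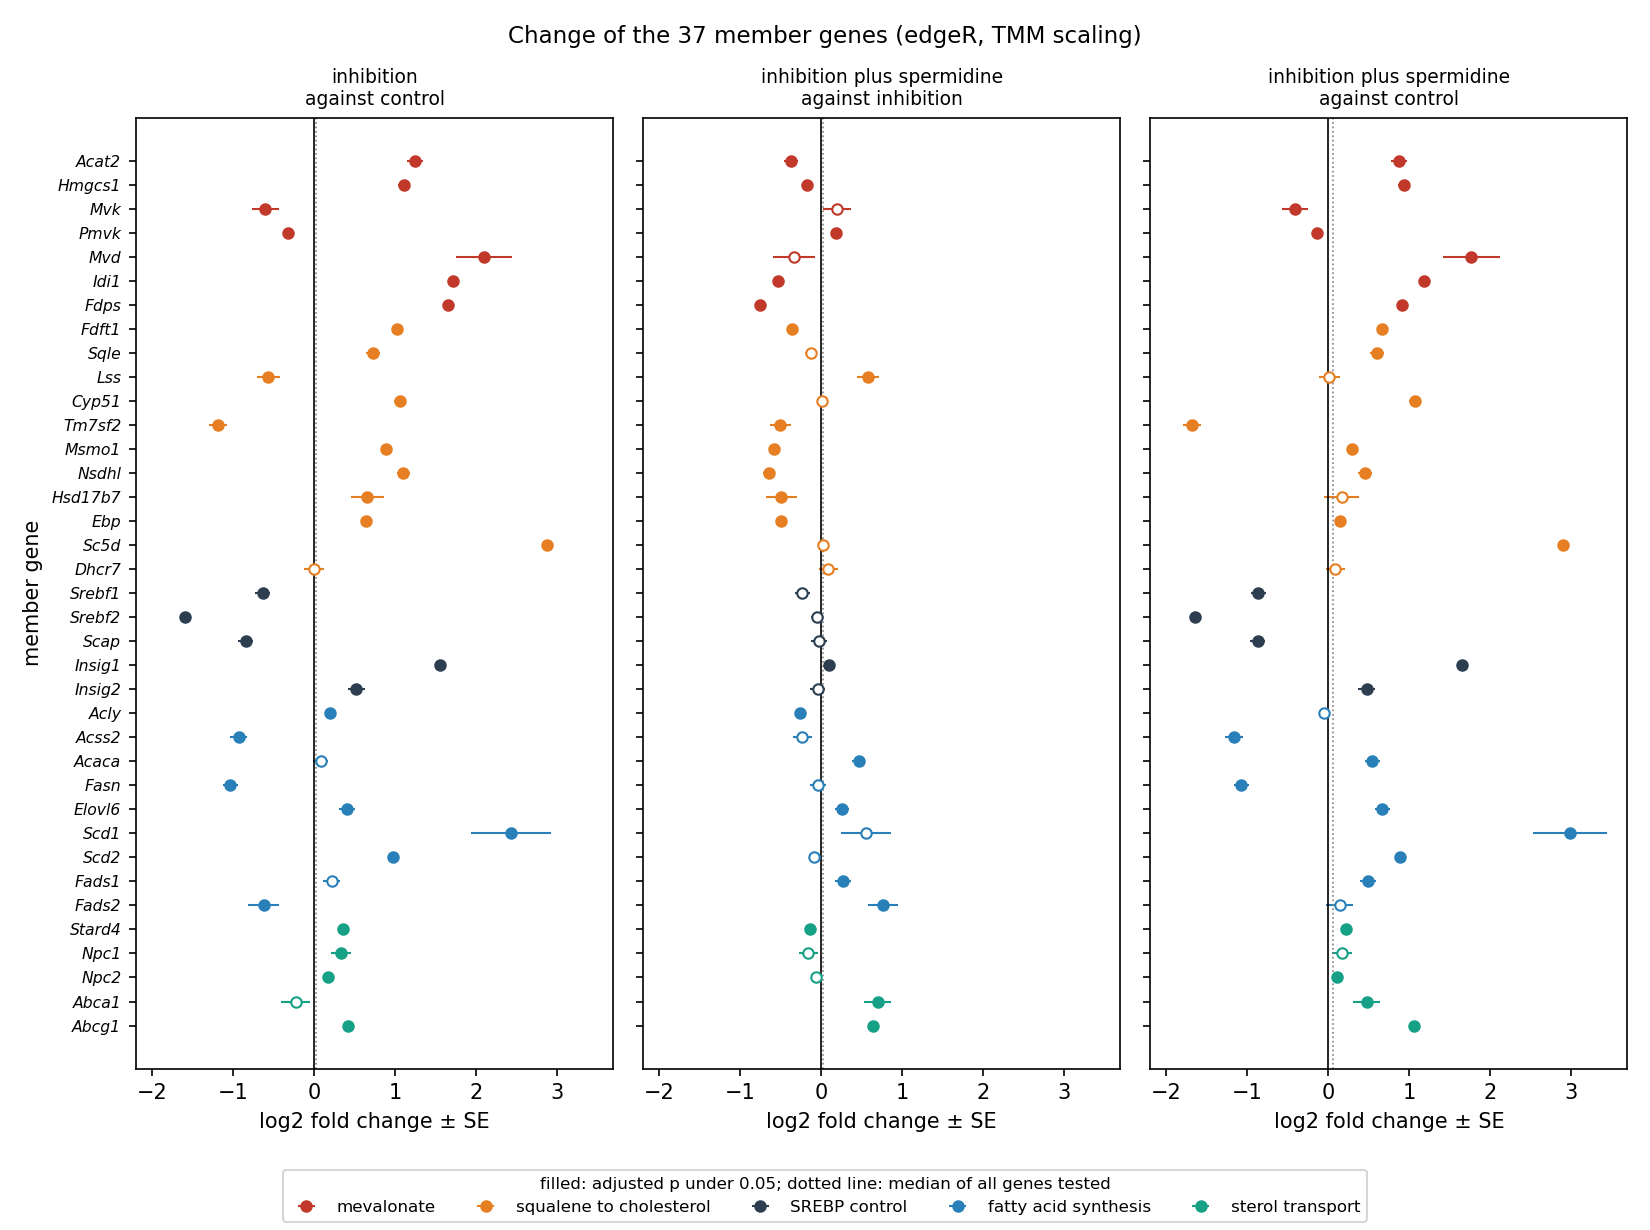
Log2 fold change with its standard error (x axis) of the 37 members (rows, coloured by branch) in the 3 comparisons, from edgeR with TMM scaling; filled points passed an adjusted p of 0.05 and the dotted line is the median of all genes tested. Sterol genes sit mostly to the right in the left panel (13 of 18 higher) and mostly to the left in the middle panel (10 of 18 lower), while Srebf1, Srebf2 and Scap sit to the left in both comparisons with control.

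**Figure D2:**
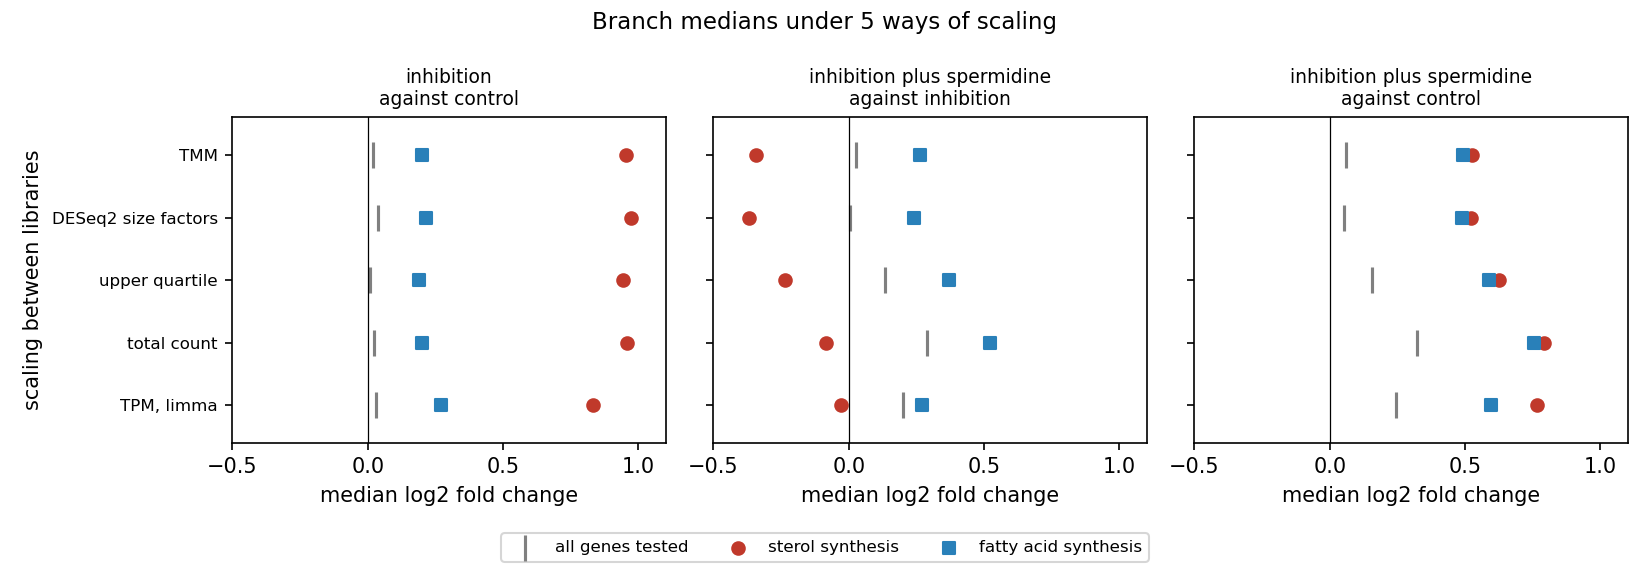
Median log2 fold change (x axis) of the 18 sterol synthesis genes, the 9 fatty acid synthesis genes and all genes tested under 5 ways of scaling (rows). In the middle panel the sterol median goes as high as -0.03 with TPM and the all-gene median moves up with it under total-count scaling and TPM, with sterol genes below and fatty acid genes above all genes; the 3 rows that only rescale the counts (TMM, upper quartile, total count) keep that distance by construction.

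In the mevalonate branch, 5 of 7 genes were higher after inhibition than in control and 2 lower, against 36.2% and 36.1% of all genes. Idi1, which isomerises the C5 building block, had 45.3, 42.2 and 45.0 CPM in the spermidine libraries, 63.2, 65.0 and 62.7 CPM in the inhibition libraries and 19.7, 17.3 and 21.0 CPM in control. The 3 groups did not overlap, with inhibition highest and control lowest. Idi1 was 3.29-fold higher in inhibition than in control (log2 1.72, SE 0.058, edgeR adjusted p 5.53e-14), and with spermidine it was lower than in inhibition, at log2 -0.53 (SE 0.051, adjusted p 2.15e-07). Fdps, the synthase of farnesyl diphosphate, followed the same order, with 97.7, 92.6 and 94.2 CPM in the spermidine libraries, 154, 165 and 159 CPM in the inhibition libraries and 47.7, 49.4 and 54.1 CPM in control. It was 3.16-fold higher in inhibition than in control (SE of log2 0.045) and had the lowest log2 fold change of any member with spermidine against inhibition, at -0.75 (SE 0.042, adjusted p 2.69e-10). Under total-count scaling that change was -0.49 and the adjusted p 5.63e-08. Idi1 and Fdps share 15.84% and 21.38% of their 100-base stretches with pseudogenes or unnamed models, so part of their reads could be assigned elsewhere.

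Hmgcs1, the synthase that condenses acetoacetyl-CoA and acetyl-CoA, had 18.3, 18.6 and 17.8 CPM in the spermidine libraries, 22.6, 19.6 and 20.1 CPM in the inhibition libraries and 9.28, 9.28 and 9.96 CPM in control. Control lay well below both other groups, which lay close to each other. Its log2 fold change was 1.12 in inhibition against control (adjusted p 3.95e-10) and -0.18 with spermidine (adjusted p 0.0254). The second call was lost without inhibition replicate 1, spermidine replicate 1 or spermidine replicate 3 (adjusted p 0.0501 to 0.0643), and the value was 0.084 under total-count scaling. Acat2, the thiolase before it, was 2.38-fold higher in inhibition than in control and changed by -0.38 with spermidine, or by -0.11 without a call under total-count scaling. It shares 28.87% of its 100-base stretches with Acat3, which stayed at or below 0.58 CPM on average. Mvd, which makes isopentenyl diphosphate, was scarce, with 35, 22 and 17 counts in the spermidine libraries, 22, 33 and 27 in the inhibition libraries, against 6, 3 and 8 in control. It was higher in inhibition than in control (log2 2.10, SE 0.35, adjusted p 3.94e-05), and the spermidine and inhibition libraries overlapped.

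The 2 kinases between them went the other way. Mvk, mevalonate kinase, averaged 2.89 ± 0.632 CPM in the spermidine libraries, 2.53 ± 0.101 CPM in the inhibition libraries and 3.82 ± 0.309 CPM in control (SD, n = 3 each), lower in inhibition than in control with a log2 fold change of -0.60 (adjusted p 0.00404). Pmvk, which adds the next phosphate, averaged 22.2 ± 1.27 CPM in the spermidine libraries, 19.5 ± 1.17 CPM in the inhibition libraries and 24.5 ± 0.590 CPM in control, with a log2 fold change of -0.32 in inhibition against control (adjusted p 1.87e-04). Both remained below control with spermidine, at log2 -0.41 for Mvk and -0.14 for Pmvk under TMM, although Pmvk was 0.12 above it under total-count scaling. The call of Mvk was lost under total-count scaling (-0.14, adjusted p 0.43), with DESeq2 (-0.41, adjusted p 0.0848) and in TPM (-0.035, limma adjusted p 0.808). Leaving out control replicate 3 or spermidine replicate 1 ended both calls (adjusted p 0.0951 and 0.163 for Mvk, 0.083 and 0.127 for Pmvk), as did spermidine replicate 3 for Mvk (0.0527) and spermidine replicate 2 for Pmvk (0.107). The rise of Pmvk with spermidine, 0.18, was lost without inhibition replicate 1, inhibition replicate 3 or spermidine replicate 3 (adjusted p 0.0965 to 0.116) and with DESeq2 (adjusted p 0.119), and was 0.44 under total-count scaling.

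Among the 11 genes that lead to cholesterol, 8 were higher and 2 lower in inhibition than in control, against 36.2% and 36.1% of all genes. Sc5d, the sterol C5 desaturase, stood out in size, with 78.6, 76.3 and 79.3 CPM in the spermidine libraries, 79.6, 76.3 and 74.1 CPM in the inhibition libraries and 10.98, 9.87 and 10.4 CPM in control. Its libraries with and without spermidine overlapped, and both groups lay far above control. The rise was 7.37-fold in inhibition against control (log2 2.88, SE 0.052, adjusted p 1.42e-17), and the log2 change with spermidine was 0.03 (SE 0.039, adjusted p 0.58), but 0.29 and called under total-count scaling (adjusted p 9.66e-06). In TPM that change was -0.06 without a call. The effective transcript length behind the TPM values of Sc5d was longer by 0.92 on the log2 scale in inhibition than in control, so per length the rise is smaller. In TPM it averaged 13.3 ± 0.203 in the spermidine libraries, 13.9 ± 0.766 in the inhibition libraries and 3.48 ± 0.537 in control.

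Msmo1, the C4 methyl oxidase, had 69.4, 66.5 and 67.0 CPM in the spermidine libraries, 100.5, 106 and 98.0 CPM in the inhibition libraries and 56.2, 56.0 and 53.0 CPM in control. Nsdhl, the dehydrogenase that acts after it, had 13.0, 12.2 and 12.7 CPM in the spermidine libraries, 19.9, 20.8 and 18.8 CPM in the inhibition libraries and 10.01, 8.21 and 9.54 CPM in control. Ebp, the sterol isomerase, had 54.9, 55.6 and 59.2 CPM in the spermidine libraries, 76.4, 82.5 and 79.3 CPM in the inhibition libraries and 48.7, 52.2 and 52.1 CPM in control. In all 3 genes inhibition was highest, the spermidine group stood between, and no libraries of the 3 groups overlapped. With spermidine they changed by log2 -0.59, -0.65 and -0.49 (adjusted p 2.77e-09, 1.26e-06 and 6.46e-08), and under total-count scaling by -0.33, -0.39 and -0.23, all still called. In TPM the call of Ebp was lost (-0.13, limma adjusted p 0.0831). Against control the spermidine group was higher by 0.30, 0.45 and 0.15 under TMM, by 0.56, 0.72 and 0.41 under total-count scaling and by 1.00, 0.69 and 0.56 in TPM. The TMM call of Ebp was lost without control replicate 1 (adjusted p 0.0858) and without the low-count filter (0.0917).

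Fdft1, squalene synthase, followed the same order with means of 20.5 ± 0.136 CPM in the spermidine libraries, 26.2 ± 0.405 CPM in the inhibition libraries and 12.9 ± 0.293 CPM in control (SD, n = 3 each). It changed by log2 -0.35 with spermidine (adjusted p 1.90e-05), or -0.09 without a call under total-count scaling. The labels state no strand-specific step, and 18.31% of its exon bases overlap Ctsb on the other strand, which averaged 50.1 CPM in the spermidine libraries, 68.6 CPM in the inhibition libraries and 25.6 CPM in control. Reads in that stretch cannot be assigned to either gene. Sqle, squalene epoxidase, and Cyp51, lanosterol demethylase, were higher in inhibition than in control by log2 0.73 and 1.06 (adjusted p 9.62e-07 and 1.05e-09), and with spermidine their values were -0.12 and 0.0080 without a call. Under total-count scaling Sqle had 0.14, still without a call, and Cyp51 was called higher with spermidine at 0.27 (adjusted p 0.00178), as it was in TPM at 0.33 (limma adjusted p 0.00563). Hsd17b7, the sterol ketoreductase, averaged 1.56 CPM in the spermidine libraries, 2.21 CPM in the inhibition libraries and 1.39 CPM in control, and its call in inhibition against control (log2 0.66) was lost without control replicate 3 (adjusted p 0.0533). Its call with spermidine (-0.49) was lost without any 1 of inhibition replicates 1 and 3 and spermidine replicates 1, 2 and 3 (adjusted p 0.0512 to 0.112). Dhcr7, a late reductase, passed in no comparison under TMM, with means of 6.60 CPM in the spermidine libraries, 6.30 CPM in the inhibition libraries and 6.21 CPM in control. Under total-count scaling it was called higher in the spermidine group than in inhibition (0.35, adjusted p 0.0165) and than in control (0.35, adjusted p 0.0141), and likewise in TPM (limma adjusted p 0.0181 and 0.0095).

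Tm7sf2, a sterol C14 reductase, was 1 of the 2 genes that were lower, with 2.98, 3.05 and 3.93 CPM in the spermidine libraries, 4.98, 4.24 and 4.80 CPM in the inhibition libraries and 10.2, 10.7 and 10.8 CPM in control. It was 2.28-fold lower in inhibition than in control (adjusted p 2.85e-08) and lower again with spermidine by log2 -0.50 (adjusted p 0.00277; -0.24 and 0.101 under total-count scaling, -0.26 and 0.189 in TPM). It shares 7.92% of its 100-base stretches with its neighbour Vps51, which averaged 6.02 CPM in the spermidine libraries, 8.24 CPM in the inhibition libraries and 17.7 CPM in control. Lss, which closes the lanosterol rings, had 3.67, 4.15 and 4.21 CPM in the spermidine libraries, 2.83, 2.53 and 2.70 CPM in the inhibition libraries and 4.31, 4.18 and 3.41 CPM in control. In CPM inhibition was lowest and the spermidine libraries overlapped control. The log2 fold change was -0.56 in inhibition against control (adjusted p 0.002) and 0.58 with spermidine (adjusted p 0.00184), which in TPM was 0.32 without a call (limma adjusted p 0.117). The effective length of Lss was longer by 1.14 on the log2 scale in inhibition and by 1.28 in the spermidine group, both against control. In TPM the spermidine libraries, at 0.654 to 1.29, lay below control, at 1.54 to 2.16 (log2 -0.50, limma adjusted p 0.0182).

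**Figure D3:**
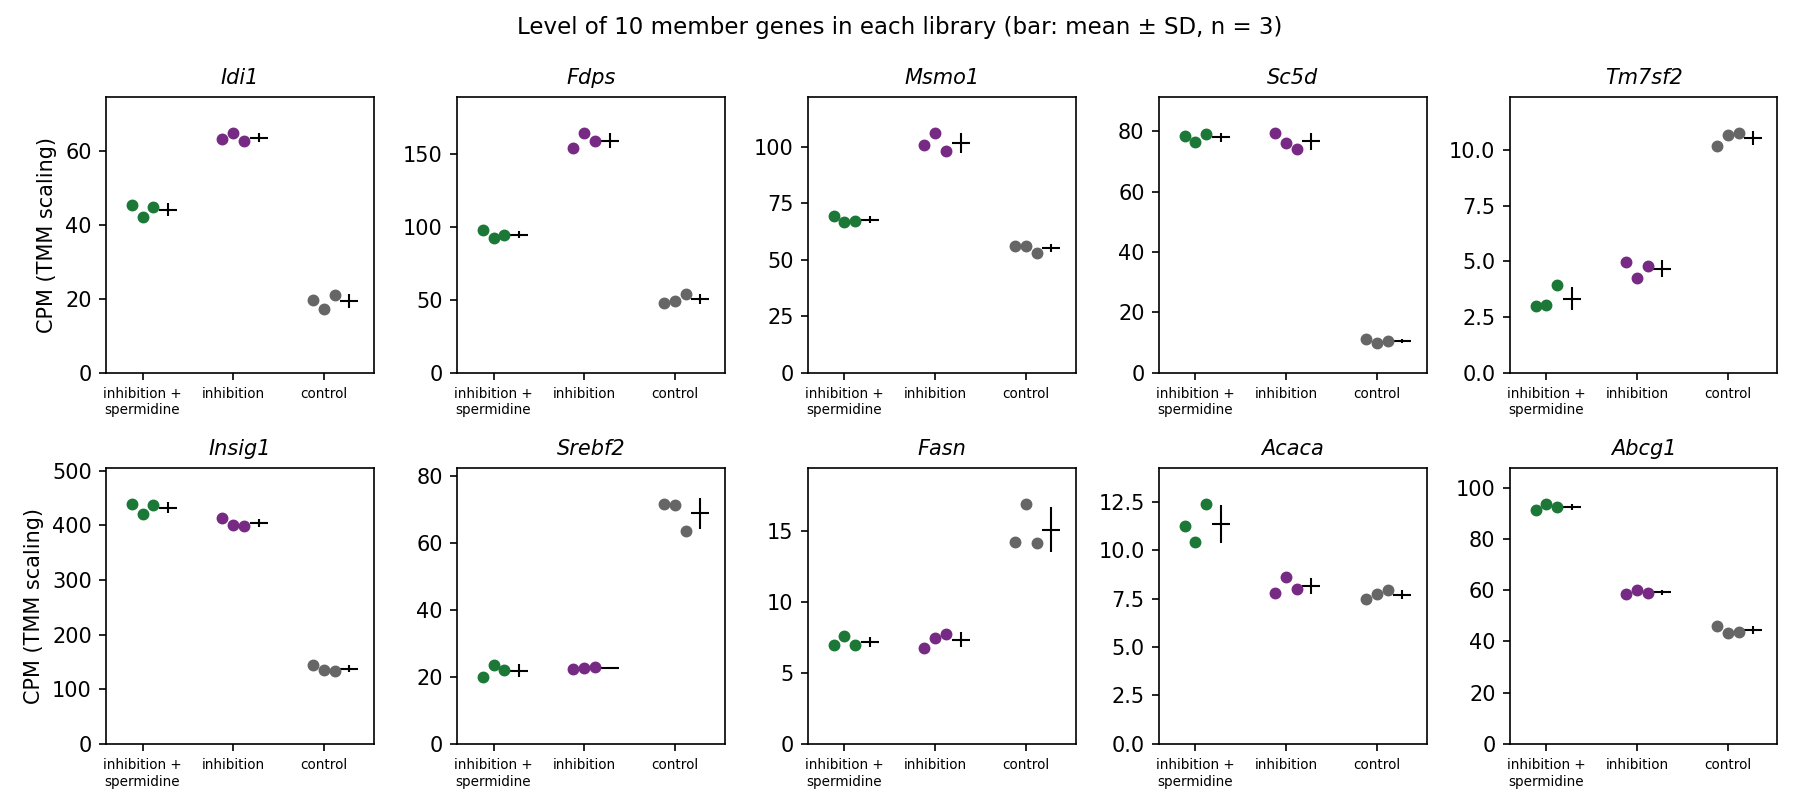
Expression in CPM after TMM scaling (y axis) of 10 members in each of the 9 libraries (points), with the mean and SD per group (n = 3). Idi1, Fdps and Msmo1 are highest in inhibition, Sc5d and Insig1 are high in both inhibited groups, Srebf2, Fasn and Tm7sf2 are highest in control, and Acaca and Abcg1 are highest with spermidine.

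The 5 genes that control the pathway moved apart. Insig1, the retention protein and itself a known SREBP target, had 440, 422 and 437 CPM in the spermidine libraries, 414, 401 and 399 CPM in the inhibition libraries and 145, 136 and 133 CPM in control. It was 2.93-fold higher in inhibition than in control (log2 1.55, SE 0.035, adjusted p 2.72e-16) and 3.14-fold higher in the spermidine group than in control. Its difference between the 2 inhibited groups was small, at log2 0.10 (adjusted p 0.0191), and was not called without inhibition replicate 1, 2 or 3 or without spermidine replicate 1 or 3 (adjusted p 0.0615 to 0.0839), nor with DESeq2 (adjusted p 0.0785). It was larger under total-count scaling, at 0.36 (adjusted p 6.52e-08), and in TPM, at 0.41 (limma adjusted p 3.76e-05). Insig2, its paralogue, was higher by 0.52 in inhibition than in control (adjusted p 2.76e-04), but in TPM the value was 0.21 without a call (limma adjusted p 0.221).

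Srebf2 had 19.95, 23.6 and 22.2 CPM in the spermidine libraries, 22.5, 22.6 and 23.0 CPM in the inhibition libraries and 71.8, 71.4 and 63.5 CPM in control. Both inhibited groups overlapped each other and lay far below control. Srebf2 was 3.03-fold lower in inhibition than in control (log2 -1.60, SE 0.062, adjusted p 3.17e-13) and 3.14-fold lower in the spermidine group than in control. Scap had 7.30, 7.79 and 7.14 CPM in the spermidine libraries, 8.48, 7.02 and 7.40 CPM in the inhibition libraries and 15.2, 13.1 and 12.6 CPM in control, with a log2 fold change of -0.85 in inhibition against control (adjusted p 4.71e-07; -0.37 in TPM, limma adjusted p 0.0126). Srebf1 averaged 5.97 ± 0.298 CPM in the spermidine libraries, 6.94 ± 0.513 CPM in the inhibition libraries and 10.9 ± 0.795 CPM in control (SD, n = 3 each), with a log2 fold change of -0.63 in inhibition against control (adjusted p 9.12e-06). In TPM that value was -0.14 without a call (limma adjusted p 0.403), and in the spermidine group against control the call was lost as well (-0.24, limma adjusted p 0.128). The difference of Srebf1 with spermidine, -0.23, just missed the threshold (adjusted p 0.0526), and passed it without control replicate 2 or 3 or without inhibition replicate 1 (0.0466, 0.0436 and 0.0228). Srebf2 and Scap, lower in counts and in TPM, were thus low in the same libraries in which most sterol synthesis RNAs were high.

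Fatty acid synthesis showed no common direction after inhibition in counts, with 4 of 9 genes higher and 3 lower. In TPM 6 were higher and 2 lower, against 5058 and 4417 of all 19454 genes. Fasn, the fatty acid synthase, had 6.93, 7.55 and 6.97 CPM in the spermidine libraries, 6.76, 7.48 and 7.75 CPM in the inhibition libraries and 14.2, 16.9 and 14.1 CPM in control. It was 2.05-fold lower in inhibition than in control (adjusted p 2.28e-08), and the 2 inhibited groups overlapped. Their log2 difference in Fasn was -0.04 in counts without a call but 0.44 in TPM, where the effective length was shorter by a log2 difference of -0.59 with spermidine. Acss2, which makes acetyl-CoA from acetate, averaged 4.63 ± 0.313 CPM in the spermidine libraries, 5.37 ± 0.550 CPM in the inhibition libraries and 10.3 ± 1.24 CPM in control (SD, n = 3 each) and was 1.91-fold lower in inhibition than in control (adjusted p 8.86e-07), or lower by log2 -0.58 in TPM, against -0.93 in counts. Acly, the citrate-based source of acetyl-CoA, averaged 26.3 ± 1.38 CPM in the spermidine libraries, 31.6 ± 1.63 CPM in the inhibition libraries and 27.4 ± 1.11 CPM in control, higher by 0.20 in inhibition than in control (adjusted p 0.00554). With spermidine Acly changed by -0.26 under TMM (adjusted p 0.00108) and by 0.0053 under total-count scaling.

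Acaca, acetyl-CoA carboxylase and the committed step of the branch, had 11.2, 10.4 and 12.4 CPM in the spermidine libraries, 7.80, 8.64 and 8 CPM in the inhibition libraries and 7.46, 7.72 and 7.95 CPM in control. It was higher with spermidine by log2 0.46 (SE 0.085, adjusted p 2.22e-04; 0.72 under total-count scaling), while the value for inhibition against control was 0.08 (adjusted p 0.428). In TPM inhibition was called higher than control as well, by 0.49 (limma adjusted p 0.0145), with an effective length shorter by a log2 difference of -0.71. It shares 23.72% of its 100-base stretches with unnamed gene models. Fads2, the first desaturase of polyunsaturated fatty acids, had 3.39, 3.01 and 2.66 CPM in the spermidine libraries, 1.91, 1.99 and 1.45 CPM in the inhibition libraries and 3.03, 2.25 and 2.99 CPM in control. It was lower in inhibition than in control by log2 -0.62 (adjusted p 0.00753) and higher with spermidine by 0.77 (adjusted p 0.00175), so that the spermidine libraries overlapped control. In TPM the first of these values was -0.20 without a call (limma adjusted p 0.13) and the second 0.38 (limma adjusted p 0.0123).

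Scd2, a stearoyl-CoA desaturase, had 35.3, 38.0 and 37.1 CPM in the spermidine libraries, 40.4, 37.9 and 38.8 CPM in the inhibition libraries and 20.1, 19.1 and 20.2 CPM in control, 1.97-fold higher in inhibition than in control (adjusted p 2.89e-11). Its relative Scd1 was close to the detection floor, with 20.1, 34.6 and 27.0 estimated counts in the spermidine libraries, 17.2, 17.0 and 15.0 in the inhibition libraries, against 1, 2.03 and 5.01 in control, so no fold is given. Elovl6, an elongase, and Fads1, the second desaturase, were higher with spermidine by 0.26 and 0.28. The Elovl6 call was lost without inhibition replicate 3 or spermidine replicate 3 (adjusted p 0.0861 and 0.064) and with DESeq2 (0.0629), and the Fads1 call without inhibition replicate 1 or 3 or spermidine replicate 2 or 3 (adjusted p 0.063 to 0.121) and with DESeq2 (0.119). Against control, Elovl6 was higher in inhibition by 0.41 (adjusted p 9.34e-04), and Fads1 had a value of 0.22 (adjusted p 0.0801), which passed without control replicate 3 (0.34, adjusted p 0.0128) and in TPM (0.24, limma adjusted p 0.0445).

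Of the sterol transport genes, the exporters stood apart with spermidine. Abcg1, which passes cholesterol to lipoproteins, had 91.6, 93.8 and 92.5 CPM in the spermidine libraries, 58.4, 60.2 and 58.9 CPM in the inhibition libraries and 46.2, 43.4 and 43.6 CPM in control. Its 3 groups did not overlap and were highest with spermidine and lowest in control. Abcg1 was higher with spermidine by log2 0.65 (SE 0.036, adjusted p 2.68e-10), higher in inhibition than in control by 0.42 (adjusted p 4.71e-08), and 2.09-fold higher in the spermidine group than in control. Abca1, which exports cholesterol to apolipoprotein A1, had 4.56, 3.64 and 4.43 CPM in the spermidine libraries, 3.13, 1.95 and 2.80 CPM in the inhibition libraries and 3.34, 3.00 and 2.73 CPM in control. It was higher with spermidine by 0.70 (adjusted p 0.0019), and its call against control (0.48) was lost without control replicate 3 or spermidine replicate 1 (adjusted p 0.07 and 0.0658).

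Npc2, which hands cholesterol on inside lysosomes, averaged 131 ± 1.76 CPM in the spermidine libraries, 137 ± 2.54 CPM in the inhibition libraries and 122 ± 3.37 CPM in control (SD, n = 3 each). Its log2 fold change was 0.17 in inhibition against control (adjusted p 1.83e-04) and 0.11 in the spermidine group against control, the second not called without control replicate 3 (adjusted p 0.0933) or without the low-count filter (0.209), and 0.37 under total-count scaling. Stard4, a cytosolic sterol carrier, was higher by 0.35 in inhibition than in control (adjusted p 1.63e-05), but in TPM by 0.17 without a call (limma adjusted p 0.147). With spermidine it changed by -0.13 under TMM and 0.13 under total-count scaling, and the TMM call was lost without inhibition replicate 1 or spermidine replicate 1 or 3 (adjusted p 0.0537 to 0.103). Npc1, the lysosomal membrane exporter, was called higher in inhibition than in control by 0.33 (adjusted p 0.0254). That call was lost without control replicate 1 or 3 or inhibition replicate 1 or 2 (adjusted p 0.0529 to 0.13) and with DESeq2 (0.0729).

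Ratios of genes within 1 library do not depend on scaling between libraries. Summed TPM of the 18 sterol genes over that of the 9 fatty acid genes was 9.19, 8.29 and 7.93 in the spermidine libraries, 11.8, 13.2 and 12.5 in the inhibition libraries, against 7.11, 6.84 and 7.39 in control. Means were 8.47 ± 0.651 in the spermidine libraries, 12.5 ± 0.716 in the inhibition libraries and 7.11 ± 0.278 in control (SD, n = 3 each). In TPM the 3 groups did not overlap, with inhibition highest and the spermidine libraries nearer to control. Fdps held 33.2% of the summed sterol TPM in the spermidine libraries, 39.8% in the inhibition libraries and 25.4% in control. Without it the TPM ratio averaged 5.65 in the spermidine libraries, 7.52 in the inhibition libraries and 5.30 in control. Inhibition still lay above both other groups, and the spermidine libraries overlapped control in TPM. The mean log2(CPM + 0.1) of the sterol genes less that of the fatty acid genes, in which each gene counts alike, averaged 0.65 in the spermidine libraries, 1.07 in the inhibition libraries and 0.45 in control. Here the spermidine libraries, at 0.61 to 0.72, did not overlap control, at 0.40 to 0.53. Sums, unlike ratios, do depend on scaling between libraries. In CPM after TMM scaling, which is not divided by length, the sterol genes summed on average to 476 with spermidine, 632 in inhibition and 291 in control. The fatty acid genes summed to 116, 115 and 99.7 CPM in the same order. TMM factors averaged 1.13, 0.942 and 0.941 in that order. Under total-count scaling both sums would therefore be higher with spermidine relative to the other groups. Insig1 over Srebf2 in TPM was 17.7, 15.0 and 15.8 in the spermidine libraries, 14.1, 14.6 and 13.9 in the inhibition libraries, against 1.56, 1.45 and 1.62 in control, so both inhibited groups lay well above control. With 3 libraries against 3, a two-sided exact permutation test cannot go below 0.1, so these ratios carry no test.

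**Figure D4:**
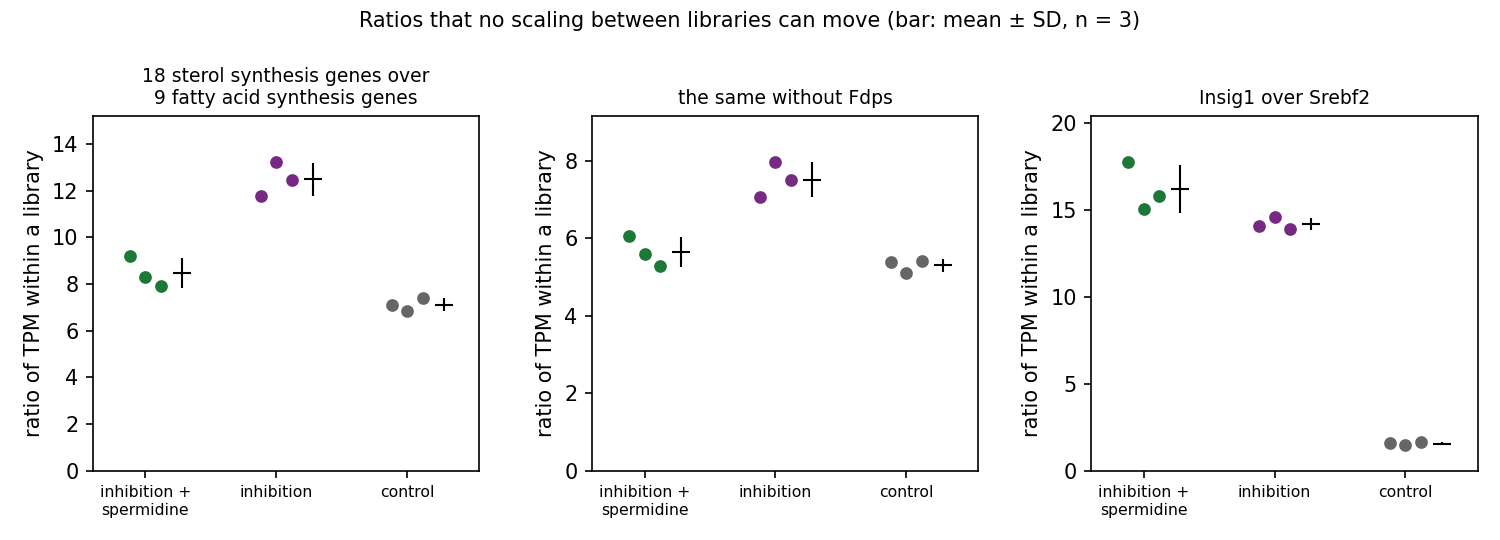
Ratios of TPM within each library (y axes, points) with the mean and SD per group (n = 3). The sterol to fatty acid ratio is 11.8 to 13.2 in inhibition, above 7.93 to 9.19 with spermidine and 6.84 to 7.39 in control; without Fdps the spermidine and control libraries overlap; Insig1 over Srebf2 is below 2 only in control.

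The rest of the pathway was taken from 4 lists of 82 genes in all (isoprenoid use, SREBP processing, sterol handling, other fatty acid and lipid genes), of which 77 were tested. In inhibition against control 33 were higher and 25 lower, which is 42.9% and 32.5%, against 36.2% and 36.1% of all genes, with a median log2 fold change of 0.17. With spermidine against inhibition 16 were higher and 28 lower, which is 20.8% and 36.4%, against 29.1% and 28.9% of all genes, with a median of -0.09. Under total-count scaling 32 of the 77 were higher and 11 lower, against 7711 and 1793 of all 14461 genes. In the spermidine group against control 28 were higher and 28 lower, which is 36.4% each way against 41% and 37.1%. Total-count scaling gave 41 higher and 17 lower of the 77, against 7705 and 3682 of all 14461 genes. SREBP processing genes were mostly lower in inhibition than in control, at 9 lower and 3 higher of 15. Among them, Mbtps1, the site-1 protease that cuts SREBP, averaged 17.3 CPM in the spermidine libraries, 14.0 CPM in the inhibition libraries and 22.9 CPM in control, a log2 fold change of -0.72 in inhibition against control (adjusted p 2.42e-08). Erlin1, which takes part in sterol-driven degradation in the endoplasmic reticulum, averaged 13.9 CPM in the spermidine libraries, 17.4 CPM in the inhibition libraries and 9.15 CPM in control, a change of 0.93 (adjusted p 3.00e-08).

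Genes that store or use sterol and isoprenoids went both ways. Soat1, which esterifies cholesterol for storage, averaged 40.3 ± 0.925 CPM in the spermidine libraries, 62.2 ± 0.816 CPM in the inhibition libraries and 11.8 ± 0.852 CPM in control (SD, n = 3 each). It was 5.27-fold higher in inhibition than in control (adjusted p 2.15e-16) and changed by log2 -0.63 with spermidine (adjusted p 4.24e-09). Its paralogue Soat2 averaged 1.88 CPM in the spermidine libraries, 2.49 CPM in the inhibition libraries and 14.4 CPM in control, 5.76-fold lower in inhibition than in control. Vldlr, a lipoprotein receptor, averaged 41.5 CPM in the spermidine libraries, 36.9 CPM in the inhibition libraries and 0.826 CPM in control, 51.1-fold higher in the spermidine group than in control (adjusted p 1.49e-16). Ggps1, which makes geranylgeranyl diphosphate from the product of Fdps, averaged 56.5 CPM in the spermidine libraries, 56.1 CPM in the inhibition libraries and 147 CPM in control, 2.61-fold lower in inhibition than in control in counts. In TPM its difference between the spermidine group and control was 0.16 (limma adjusted p 0.0473), against -1.38 in counts. Zmpste24, the protease of prenylated proteins, averaged 17.2 CPM in the spermidine libraries, 33.4 CPM in the inhibition libraries and 14.4 CPM in control, higher in inhibition than in control by 1.21 and changed by -0.97 with spermidine (adjusted p 2.27e-10 and 8.43e-09).

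In lipid synthesis beyond the members, Tecr, the last reductase of chain elongation, averaged 130 ± 2.63 CPM in the spermidine libraries, 211 ± 1.64 CPM in the inhibition libraries and 104 ± 5.14 CPM in control (SD, n = 3 each). It was 2.02-fold higher in inhibition than in control (adjusted p 9.99e-14) and changed by -0.70 with spermidine (adjusted p 7.16e-11). Lpin1, a phosphatidate phosphatase, went the other way, with an average of 8.22 CPM in the spermidine libraries, 5.48 CPM in the inhibition libraries and 16.1 CPM in control, a change of -1.55 in inhibition against control and 0.59 with spermidine (adjusted p 7.92e-10 and 3.51e-04). Acsl4, an acyl-CoA synthetase, was higher in the spermidine group than in control by log2 0.71, and Hacd1, a dehydratase of chain elongation, was lower by -0.68. In the remaining lists, Fnta, a prenyltransferase subunit, was higher by 0.60 and Vcp, an ATPase of protein extraction, lower by -0.52 in the same comparison. With spermidine against inhibition, Pdss2, which builds the side chain of coenzyme Q, was higher by 0.40, Osbpl1a, an oxysterol-binding protein, was higher by 0.70 and Ufd1, a partner of Vcp, was lower by -0.36. Under total-count scaling the value of Ufd1 was -0.09 and its call was lost (adjusted p 0.0505), and the call of Vcp was lost in TPM (-0.08, limma adjusted p 0.154).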

How the data were processed

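Low-input RNA sequencing of HSCs was analysed in 9 libraries of 3 groups. For these libraries the authors deposited estimated counts and, in a separate table, TPM values, both only for genes whose counts sum to 5 or more. Per the submitters' processing notes, the tools, with no roles stated, were edgeR 3.24.3, HTSeq 0.10.0, STAR 2.6.1d and Trim Galore 0.6.2, on build mm10. Of the deposited estimated counts 48.2% were whole to within 1e-06, so the step that made the others is not given in the sources used here. The deposited TPM values are scaled within a library for length and depth, and their effective lengths differ between groups for some members.

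Estimated counts were rounded to whole numbers and tested in R 4.3.3 with edgeR 4.0.16 (quasi-likelihood, TMM scaling, default low-count filter, 1 mean per group over all 9 libraries), leaving 14461 of 19454 genes. Benjamini-Hochberg adjustment covered all genes tested, with a threshold of 0.05. All 37 members were tested. Standard errors were computed from the fold change and its F statistic. The fit was tested on simulated counts in which most genes were unchanged, unlike here, so that test does not bear on the choice of scaling. Total counts set the precision, and the floor of 3 counts covers counting error only, since PCR copies are not independent molecules. Gene bounds and overlaps came from GENCODE on GRCm38, and promoters from RefSeq.

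The members and gene lists were chosen with earlier results of these data known. Genes named outside the members are, per list and comparison, the higher and the lower called gene with the smallest p whose libraries do not overlap. Alternatives were total-count and upper-quartile scaling, DESeq2 1.42.0, no low-count filter, limma 3.58.1 on log2(TPM + 1) or log2(TPM + 0.1) with a mean TPM of at least 1, or with no filter, removal of genes of other cells, fits of 2 groups only, a replicate block and leaving out each library. Residuals of libraries with the same replicate number correlated at -0.0359 to 0.0647, so no shared effect of a number was seen. The labels do not say whether a number marks a shared animal or day.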

Additional observations from a re-analysis of the deposited data

How the results depend on the processing

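In inhibition against control the members counted as higher or lower stayed within 1.5 times of 23 and 10 under every alternative run (22 to 23 and 10 with a library left out). The sterol median of 0.96 became 0.83 with log2(TPM + 1), 1.05 with log2(TPM + 0.1) and 0.75 without the TPM filter, and 0.93 to 0.96 with a library left out. The fatty acid median of 0.20 became 0.38 with log2(TPM + 0.1), and 0.14 to 0.22 with a library left out. In the spermidine group against inhibition, the 9 higher members became 19 with total-count scaling, 5 with DESeq2, 14 with log2(TPM + 0.1) and 15 with TPM unfiltered, and 5 to 9 with a library left out, the 5 without inhibition replicate 3 or spermidine replicate 3. All genes called higher moved alike, from 4213 of 14461 to 7711 with total-count scaling and 3075 with DESeq2. They were 4745 of 9809 with log2(TPM + 0.1) and 7997 of 19454 with TPM unfiltered. The 12 lower members became 5 with total-count scaling, 4 in all 3 TPM fits and 9 to 13 with a library left out. All genes called lower fell from 4183 to 1793 with total-count scaling, and were 1090, 1068 and 1333 in the TPM fits. The sterol median of -0.34 became -0.082 with total-count scaling, -0.23 with upper-quartile scaling, -0.39 without the low-count filter, -0.027, -0.031 and -0.027 in the TPM fits and -0.37 to -0.28 with a library left out. The fatty acid median of 0.26 became 0.52 with total-count scaling and 0.19 to 0.29 with a library left out. In the spermidine group against control the sterol median of 0.53 became 0.79 with total-count scaling, 0.63 with upper-quartile scaling, 0.47 without the low-count filter, 0.77, 0.97 and 0.70 in the TPM fits, and 0.49 to 0.55 with a library left out. The fatty acid median of 0.49 became 0.75 and 0.59 with those scalings, 0.60 and 0.88 with log2(TPM + 1) and log2(TPM + 0.1), and 0.41 to 0.55 with a library left out, where 21 to 23 members were higher and 6 to 8 lower. Total-count scaling shifts every gene alike, and the cause of the other changes was not tested.

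Counting only members called on either side, directions turned for 9 in the spermidine group against inhibition and for 3 in that group against control. With uncalled values the sign turned for 16 and 5 members under at least 1 alternative, and for 1 in inhibition against control. In the first comparison, the values with total-count scaling, log2(TPM + 1), log2(TPM + 0.1) and TPM unfiltered were 0.084, 0.16, 0.19 and 0.16 for Hmgcs1, 0.21, 0.20, 0.22 and 0.20 for Srebf2, 0.0053, 0.20, 0.23 and 0.20 for Acly, 0.18, 0.19, 0.22 and 0.19 for Scd2, 0.13, 0.091, 0.10 and 0.091 for Stard4, and 0.20, 0.26, 0.27 and 0.26 for Npc2. Scap was 0.23 with total-count scaling, Acss2 0.33 with log2(TPM + 0.1), and Fasn 0.44, 0.80 and 0.44 in the TPM fits. Against control, Pmvk was 0.12, 0.30, 0.31 and 0.30 and Acly 0.21, 0.47, 0.55 and 0.47 in the same order, and Lss was -0.50, -0.83 and -0.50 in the TPM fits. Ggps1, outside the members, was 0.16, 0.17 and 0.16 there. With the replicate block the sterol medians were 0.95, -0.36 and 0.53 in the 3 comparisons. Of the member calls only that of Pmvk in the spermidine group against control was lost (-0.14, adjusted p 0.0557), although the labels do not say what a replicate number marks. Depth limits Scd1 and Mvd, which had under 10 counts per control library.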
